A study of Drosophila melanogaster with 10 samples.

Results

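The genes described here are 8 neuropeptide genes of the endocrine cells of the fly gut, Tk, NPF, Dh31, CCHa1, CCHa2, AstA, AstC and Mip, out of 17735 genes in the count tables. They were picked by their FlyBase symbols as known gut peptide genes. That rule uses no measured value, but the choice was made with earlier results of these data known. RNA was sequenced from whole larvae of Drosophila melanogaster in the third instar in the y1w1118 strain background, kept at 25 °C, with 2 libraries for each of 5 genotypes. CTCF larvae carry dCTCFdeltaCP, in which the domain of the architectural protein CTCF that contacts the cofactor CP190 is altered. CTCF Su(Hw) larvae carry dCTCFdeltaCP and SuHwdelta114, CTCF Pita larvae carry dCTCFdeltaCP and PitadeltaCP1, and triple mutants carry all of these alleles, of which SuHwdelta114 and PitadeltaCP1 alter the matching domains of the architectural proteins Su(Hw) and Pita. Wild type is labelled dCTCFwt. All mutants share the CTCF allele, so the effect of the Su(Hw) or Pita mutation was measured on the CTCF background alone. The source was the whole animal, and the labels give neither the sex nor the number of larvae behind a library.

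Enteroendocrine cells are scattered among the absorptive cells of the midgut and release peptides into the gut wall and the blood in response to food. Each peptide is cut from a longer precursor, often amidated at its end, stored in dense core vesicles and read by G protein-coupled receptors on muscle, enterocytes, fat body or neurons. In the adult midgut many of these cells fall into cells that make Tk, often with NPF or Dh31, and cells that make AstC. All of the 8 genes are also expressed outside the gut, most of them in neurons of the central nervous system and CCHa2 in the larval fat body. In RNA from whole larvae, the source of a transcript cannot be told apart, nor can fewer cells of a type be told apart from less RNA per cell.

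Each gene was identified by its FlyBase number, with positions in dm6 coordinates from the Ensembl annotation. Tk (FBgn0037976) lies on chromosome arm 3R from 11994175 to 12005473, on the minus strand. CCHa2 (FBgn0038147) lies on 3R from 13389059 to 13395197, CCHa1 (FBgn0038199) from 14092504 to 14096835 and AstA (FBgn0015591) from 24760530 to 24765071, all on the minus strand of the same arm. NPF (FBgn0027109) lies on 3R from 16609220 to 16611325 on the plus strand. Dh31 (FBgn0032048) and AstC (FBgn0032336) lie on the minus strand of 2L, from 8491868 to 8506845 and from 11076165 to 11081399. Mip (FBgn0036713) lies on 3L from 17344947 to 17349666, on the minus strand. Counts were made without regard to strand, but none of the 8 genes shares an exon base with another annotated gene. The span of Tk overlaps Ect3 and that of Dh31 overlaps Bace, in each case with 0 shared exon bases.

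Reads assigned to genes numbered 5670793 to 8220126 per library, and 1 read stood for 0.0927 to 0.289 CPM, the unit used below, which scales read counts to the library size corrected by TMM factors. Reads of mitochondrial transcripts made up 34.6% and 24.2% of the reads assigned to genes in CTCF larvae and 8.67% to 18.7% in the other libraries. TMM factors ran from 0.553 to 1.35. Multimapping reads, which are not counted, made up 65.5% and 63.3% of all reads in CTCF larvae and 50.9% to 60.2% in the other libraries. The libraries of CTCF Su(Hw) larvae stood apart in how closely they matched: their spread over genes had a chi-square per degree of freedom of 1.79, against 14.3 to 41.5 in the other groups. Nothing in the labels says whether the libraries of CTCF Su(Hw) larvae were separate RNA samples. All comparisons share 1 estimate of the spread, so p-values may be too small, also in comparisons without this group. It is therefore stated where a call ended once these libraries were summed to 1.

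All 8 genes passed the filter on low counts. NPF reached the filter level of 1.49 CPM in 5 of 10 libraries and CCHa1 in 7, while the other 6 genes did so in all 10. NPF had 5 to 20 reads per library and CCHa1 5 to 39, so that changes of these genes were measured with the widest errors. AstA had 42 to 237 reads and CCHa2 197 to 630.

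Per exon length, CCHa2 was the highest of the 8 genes in every genotype. It stood at 39.5 ± 0.548 CPM per kilobase of exon in CTCF larvae (SD, n = 2), 20.7 ± 0.294 in CTCF Su(Hw) larvae, 33.8 ± 7.19 in CTCF Pita larvae, 41.5 ± 6.67 in triple mutants and 53.4 ± 5.94 in wild type. As a share of the summed level of the 8 genes per kilobase, this was 55.4% and 58.0% in CTCF larvae, 47.2% and 48.2% in CTCF Su(Hw) larvae, 41.9% and 53.0% in CTCF Pita larvae, 39.4% and 42.6% in triple mutants, and 59.7% and 63.3% in wild type. The CCHa2 share of every mutant library was thus below that of both wild type libraries. The makeup of the rest also differed: Mip had the lowest level per kilobase of the 8 genes in wild type (2.58 ± 0.167 CPM per kilobase) and the third highest in triple mutants (10.9 ± 0.406). Tk was the third highest in wild type (5.42 ± 0.118 CPM per kilobase) and had the lowest mean in CTCF Pita larvae (1.99 ± 0.973), where it was lowest in CTCF Pita 1 (1.30) but above NPF in CTCF Pita 2 (2.68 for Tk and 2.41 for NPF).

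**Figure D1:**
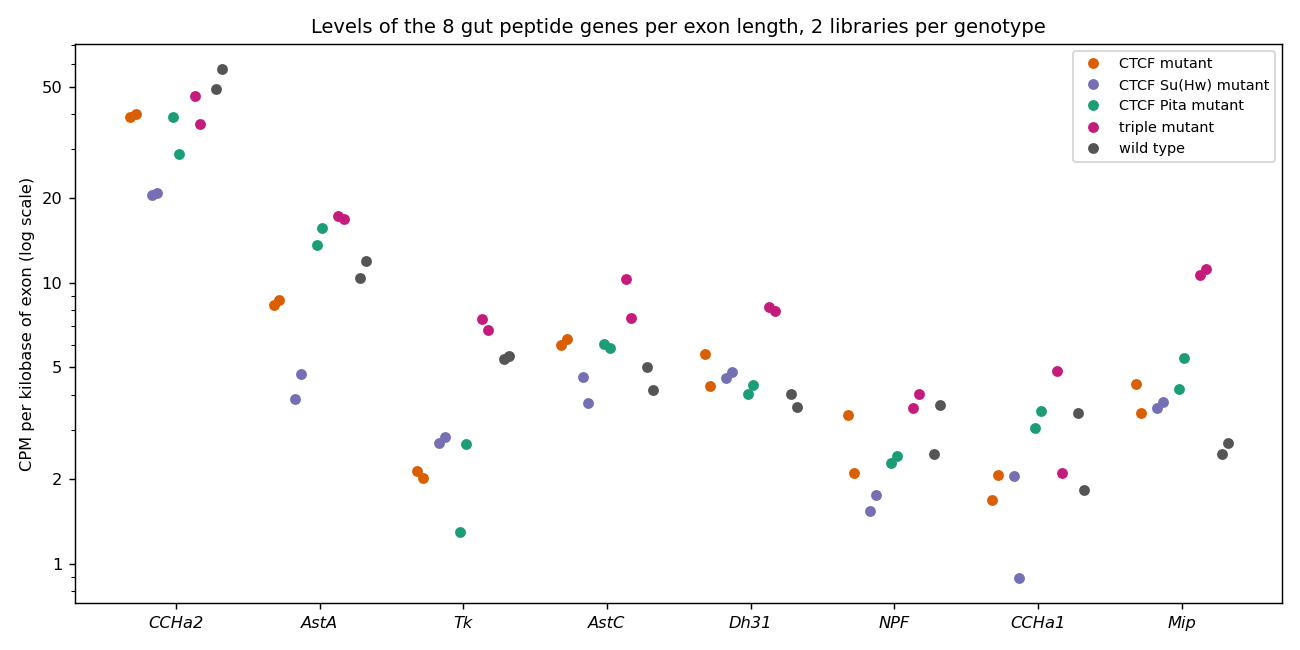
Level of each of the 8 gut peptide genes in CPM per kilobase of exon on a log axis, with 2 dots (libraries) per genotype and the genotypes in the order CTCF, CTCF Su(Hw), CTCF Pita, triple mutant and wild type from left to right. CCHa2 lies above all other genes in each genotype, and Mip is lowest in wild type at 2.58 CPM per kilobase but the third highest in triple mutants at 10.9.

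Tk was lower than wild type in all mutants but the triple, Dh31 was raised in triple mutants, and NPF passed no test. Tk encodes the tachykinins, which act on gut muscle and, from the gut of adult flies, lower lipid synthesis in enterocytes. It stood at 3.47 and 3.29 CPM in CTCF larvae, 4.36 and 4.60 in CTCF Su(Hw) larvae, 2.11 and 4.34 in CTCF Pita larvae, 12.1 and 11.1 in triple mutants, and 8.66 and 8.93 in wild type. Every library of CTCF larvae and of both double mutants was below wild type, and both triple mutant libraries were above it. Against wild type, Tk fell by 0.97 on the log2 scale in CTCF Su(Hw) larvae (SE 0.27, adjusted p = 0.0189, edgeR quasi-likelihood test with Benjamini-Hochberg adjustment) and by 1.41 in CTCF Pita larvae (SE 0.28, adjusted p = 0.00362). Among CTCF Su(Hw) larvae the call was lost in 8 of 18 alternatives, such as these libraries summed, or either of them or either wild type library left out. Among CTCF Pita larvae the call was kept when any library was left out, but lost with library totals in place of TMM factors and with the mean level of the salivary glue genes as a covariate for developmental stage.

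In CTCF larvae Tk fell by 1.38 on the log2 scale against wild type (SE 0.33, adjusted p = 0.0485). That call was lost in 11 of 18 alternatives, including when any library of wild type, CTCF larvae or CTCF Su(Hw) larvae was left out. It was also lost with the libraries of CTCF Su(Hw) larvae summed and in the fit with a term for the replicate number. The log2 fold change of Tk kept its direction in all 18 alternatives (-1.96 to -1.28). Triple mutants exceeded CTCF Pita larvae in Tk by 1.81 (SE 0.28, adjusted p = 0.00243), a call kept in all 18 alternatives, and CTCF Su(Hw) larvae by 1.37 (SE 0.26, adjusted p = 0.00443), a call lost without either library of CTCF Su(Hw) larvae. Against wild type triple mutants did not pass the test in Tk (log2 fold change 0.40, SE 0.26, adjusted p = 0.297).

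NPF encodes the fly relative of neuropeptide Y, and a gut supply of it responds to feeding and mating in adults. It had 2.03 and 1.26 CPM in CTCF larvae, 0.927 and 1.05 in CTCF Su(Hw) larvae, 1.36 and 1.45 in CTCF Pita larvae, 2.14 and 2.41 in triple mutants, and 1.47 and 2.19 in wild type. The triple mutant libraries overlapped wild type, and those of CTCF Su(Hw) larvae were the lowest. No comparison passed the test for NPF. The closest was triple mutants, with 20 and 12 reads, against CTCF Su(Hw) larvae, with 10 and 11 reads (log2 fold change 1.17, SE 0.39, adjusted p = 0.0525).

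Dh31 encodes a calcitonin-like diuretic hormone that also drives contractions of the gut. It stood at 7.23 and 5.56 CPM in CTCF larvae, 5.93 and 6.22 in CTCF Su(Hw) larvae, 5.21 and 5.59 in CTCF Pita larvae, 10.6 and 10.3 in triple mutants, and 5.23 and 4.70 in wild type. Both triple mutant libraries were above all others, and the other 4 genotypes lay close to each other. Dh31 was 2.10-fold higher in triple mutants than in wild type (log2 fold change 1.07, SE 0.21, adjusted p = 0.00441), a call lost with the covariate for stage alone. It exceeded CTCF Pita larvae by 0.95 on the log2 scale (SE 0.20, adjusted p = 0.0119) and CTCF Su(Hw) larvae by 0.78 (SE 0.20, adjusted p = 0.0163). The last of these calls was lost with the libraries of CTCF Su(Hw) larvae summed, without either of them, with DESeq2 and with library totals. The difference from CTCF Pita larvae was not called without CTCF Pita 1, with DESeq2, with library totals or in a fit of those groups alone.

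The CCHamide genes stood far apart in level per kilobase, where the group means of CCHa1 ran from 1.47 to 3.49 CPM. CCHa2 encodes a nutrient-responsive peptide that in larvae acts on the insulin-producing cells of the brain. It had 57.0 and 58.1 CPM in CTCF larvae, 29.9 and 30.5 in CTCF Su(Hw) larvae, 56.8 and 41.9 in CTCF Pita larvae, 67.4 and 53.7 in triple mutants, and 71.7 and 84.0 in wild type. All mutant libraries were below wild type, and those of CTCF Su(Hw) larvae were the lowest. CCHa2 fell in CTCF Su(Hw) larvae against wild type (log2 fold change -1.36, SE 0.18, adjusted p = 0.000505), a call kept in all 18 alternatives. Against CTCF larvae it fell by 0.93 in CTCF Su(Hw) larvae (SE 0.18, adjusted p = 0.00263), and by 0.98 relative to the all-gene median with library totals, where the value itself was 0.13 and the median of all genes moved by 1.06. It exceeded CTCF Su(Hw) larvae by 1.01 in triple mutants (SE 0.18, adjusted p = 0.00307), a call lost with library totals. It also fell against wild type in CTCF Pita larvae (-0.66, SE 0.18, adjusted p = 0.0141), but this was not called without wild type 2 or CTCF Pita 2, with library totals or with the covariate for stage. In CTCF larvae (-0.44, SE 0.18, adjusted p = 0.228) and triple mutants (-0.36, SE 0.18, adjusted p = 0.176) it did not pass the test.

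CCHa1, whose peptide acts on sleep and arousal in adults, had 1.45 and 1.77 CPM in CTCF larvae, 1.76 and 0.766 in CTCF Su(Hw) larvae, 2.60 and 2.99 in CTCF Pita larvae, 4.17 and 1.81 in triple mutants, and 2.94 and 1.57 in wild type. Neighbouring genotypes in the order of its means overlapped throughout. It passed no test, with the smallest adjusted p in triple mutants against CTCF Su(Hw) larvae (log2 fold change 1.32, SE 0.49, adjusted p = 0.0753).

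The allatostatin genes were named for inhibition of juvenile hormone synthesis in other insects, and in the fly their peptides act on feeding, gut movement and other neurons. AstA stood at 12.2 and 12.6 CPM in CTCF larvae, 5.65 and 6.89 in CTCF Su(Hw) larvae, 19.8 and 22.8 in CTCF Pita larvae, 25.3 and 24.7 in triple mutants, and 15.2 and 17.4 in wild type. No genotypes overlapped. AstA had opposite calls in the double mutants when each was set against CTCF larvae: it fell by 0.98 on the log2 scale with the Su(Hw) mutation added (SE 0.19, adjusted p = 0.00253) and rose by 0.78 with the Pita mutation added (SE 0.18, adjusted p = 0.00493). The rise was called in all 18 alternatives. With library totals, where the median of all genes moved by 1.06 in both comparisons, the fall turned to 0.079, and relative to the all-gene median AstA stood at -1.04 for the Su(Hw) and 0.73 for the Pita mutation. Against wild type it fell in CTCF Su(Hw) larvae (-1.38, SE 0.18, adjusted p = 0.000414) and rose in triple mutants (0.62, SE 0.16, adjusted p = 0.02). The triple mutant call was lost in 7 of 18 alternatives, among them the covariate for stage and the fits without wild type 1, wild type 2 or triple 1. Triple mutants were 3.98-fold above CTCF Su(Hw) larvae (log2 fold change 1.99, SE 0.17, adjusted p = 3.43e-05), the largest change of a gut peptide gene in that comparison.

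AstC, which encodes a relative of somatostatin, had 7.23 and 7.58 CPM in CTCF larvae, 5.56 and 4.50 in CTCF Su(Hw) larvae, 7.31 and 7.04 in CTCF Pita larvae, 12.4 and 9.04 in triple mutants, and 6.04 and 5.01 in wild type. The triple mutant libraries were the highest, and CTCF Su(Hw) larvae overlapped wild type. AstC rose in triple mutants against wild type (log2 fold change 0.98, SE 0.23, adjusted p = 0.0117) and against CTCF Su(Hw) larvae (1.11, SE 0.22, adjusted p = 0.00538). The call against wild type was lost without wild type 2, without triple 1 and with the covariate for stage, and that against CTCF Su(Hw) larvae without CTCF Su(Hw) 2 and with library totals.

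Mip encodes the myoinhibitory peptides, also called allatostatin B, which slow gut muscle and bind the sex peptide receptor. It stood at 6.08 and 4.80 CPM in CTCF larvae, 5.01 and 5.27 in CTCF Su(Hw) larvae, 5.83 and 7.52 in CTCF Pita larvae, 14.9 and 15.7 in triple mutants, and 3.43 and 3.76 in wild type. Every mutant library was above wild type, and triple mutants were above all others. Mip rose by 2.08 on the log2 scale in triple mutants against wild type (4.22-fold, SE 0.22, adjusted p = 0.000111), the largest change against wild type among the 8 genes, and the call was kept in all 18 alternatives. It also exceeded CTCF Pita larvae by 1.18 (SE 0.20, adjusted p = 0.00391) and CTCF Su(Hw) larvae by 1.57 (SE 0.20, adjusted p = 0.000436), again in all 18. In CTCF Pita larvae it rose by 0.90 against wild type (SE 0.24, adjusted p = 0.0126), but not without wild type 1, wild type 2 or CTCF Pita 2, with DESeq2 or with the covariate for stage. CTCF larvae (0.59, SE 0.27, adjusted p = 0.293) and CTCF Su(Hw) larvae (0.51, SE 0.24, adjusted p = 0.119) did not pass.

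**Figure D2:**
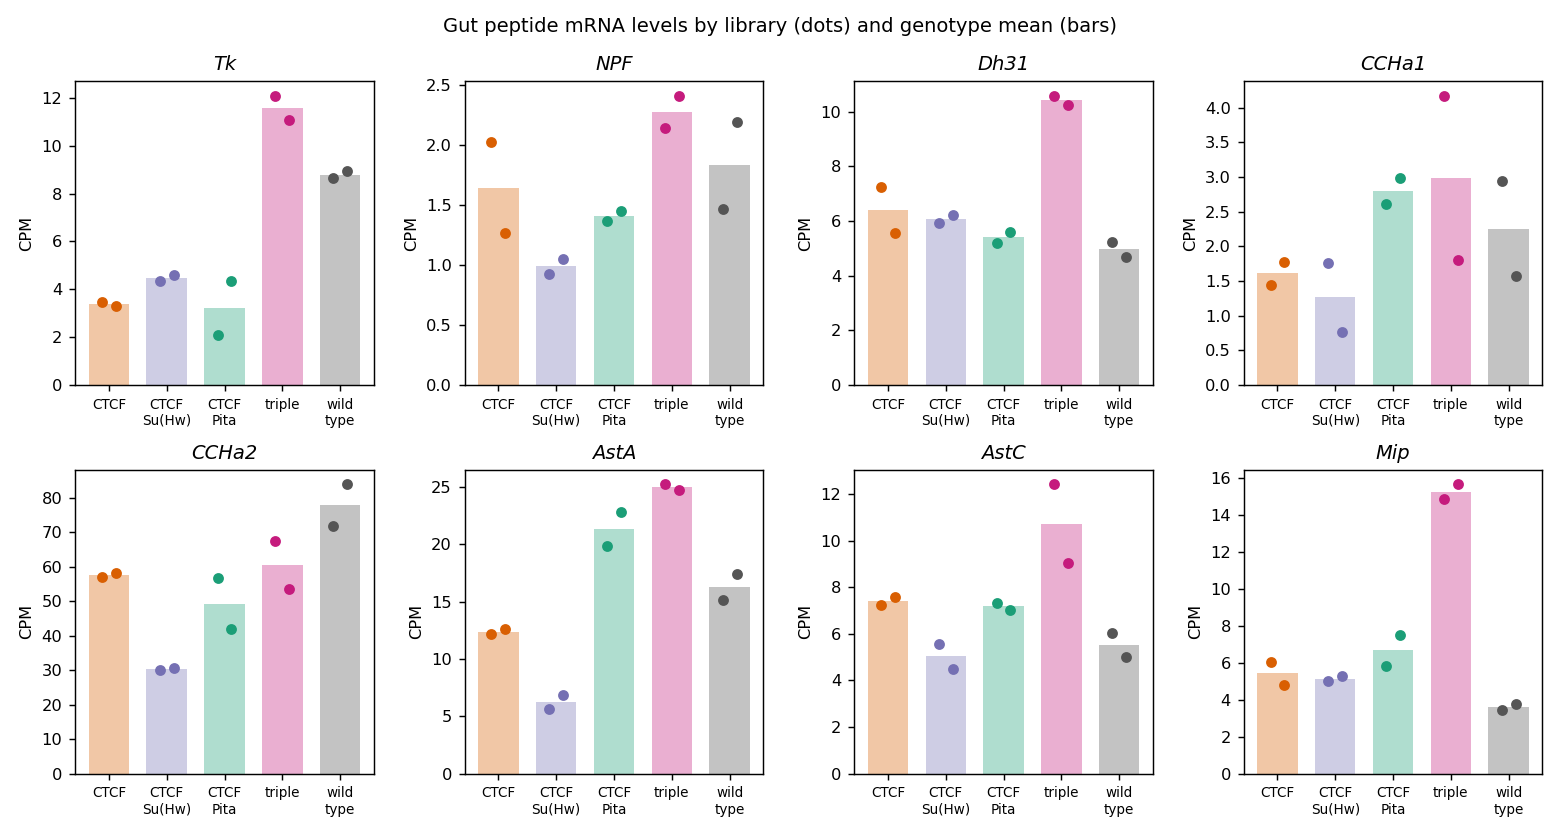
Level of each gut peptide gene in CPM, with dots for the 2 libraries of a genotype and a bar for their mean, and the mutants to the left of wild type. Mip reaches 14.9 and 15.7 CPM in triple mutants against 3.43 and 3.76 in wild type, while CCHa2 is highest in wild type and lowest in CTCF Su(Hw) larvae.

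Taken as a group, the gut peptide genes had a summed level of 96.6 and 95.04 CPM in CTCF larvae, 59.1 and 59.9 in CTCF Su(Hw) larvae, 101 and 93.7 in CTCF Pita larvae, 149 and 129 in triple mutants, and 114.7 and 128 in wild type. Without CCHa2, the highest of them, the sums were 39.6 and 36.9 CPM in CTCF larvae, 29.2 and 29.3 in CTCF Su(Hw) larvae, 44.3 and 51.8 in CTCF Pita larvae, 81.6 and 75.0 in triple mutants, and 43.0 and 43.5 in wild type. Triple mutants were thus the highest and CTCF Su(Hw) larvae the lowest on either sum. In CTCF larvae against wild type, 1 of 8 gut peptide genes was called, as lower, beside 3.37% of all 10585 genes tested in either direction, 1.17% as lower and 2.2% as higher. In CTCF Su(Hw) larvae 3 of 8 were lower and none higher, beside 33.3% of all genes in either direction with 17.4% as lower and 15.8% as higher, and in CTCF Pita larvae 2 were lower and 1 higher, beside 37.8% in either direction, 19.2% as lower and 18.6% as higher. In triple mutants 4 were higher and none lower, beside 21.2% in either direction with 10.9% as higher and 10.3% as lower. The share of gut peptide genes called in the double mutants, 3 of 8 in each, was thus near the background in either direction. The median log2 fold change of the 8 genes against wild type was -0.28, -0.85, 0.22 and 0.56 in CTCF, CTCF Su(Hw), CTCF Pita and triple mutant larvae, where that of all genes tested was -0.02, -0.01, -0.0014 and 0.0026. These comparisons share the wild type libraries.

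With library totals in place of TMM factors the split of calls against wild type became 2 higher and 2 lower in CTCF Su(Hw) larvae and 3 higher and 0 lower in CTCF Pita larvae. The all-gene median shifted by 0.48 and 0.49 in these comparisons under that scaling. Without wild type 2 triple mutants had 2 of 8 called, and likewise without triple 1. CTCF Pita larvae had 1 of 8 called without wild type 2 and also without CTCF Pita 2. Wild type 1 and 2 lay far apart in the mean of the 11 salivary glue genes (5.63 and 2.88 log2 CPM, against 6.16 to 7.78 in the mutant libraries). The Sgs genes among them come on late in the third instar, but the list also holds ng1, ng2 and ng3. In CTCF Pita larvae against wild type 7 of the 11 were higher, beside 18.6% of all genes. Lower were ng1 (-0.54) and ng2 (-1.63), beside 19.2%. With the libraries of CTCF Su(Hw) larvae summed, ng1 was no longer called. With the mean of the 11 glue genes as the covariate for stage, none of 8 was called in CTCF Pita larvae and 1 in triple mutants against wild type. In CTCF Pita larvae the log2 fold changes that lost the call were -1.27 for Tk, -0.33 for CCHa2 and 0.88 for Mip. Without the covariate they were -1.41, -0.66 and 0.90. In triple mutants they were 0.81 for AstA, 0.99 for AstC and 0.89 for Dh31, against 0.62, 0.98 and 1.07 without it. The glue mean was lower in both wild type libraries than in every mutant library, so this covariate overlaps with genotype. The part of developmental timing in these results was not tested beyond that covariate.

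Between mutants, adding the Su(Hw) mutation to CTCF larvae lowered 2 of 8 genes, AstA and CCHa2, and raised none, beside 41.4% of all genes called in either direction with 21.4% as lower and 20% as higher. With library totals the split was 3 higher and 0 lower, and the median of all genes moved by 1.06. Adding the Pita mutation raised 1 of 8, AstA, beside 44.1% in either direction with 21.4% as higher and 22.6% as lower, and 7 were called as higher with library totals, where the median of all genes again moved by 1.06. Adding the Su(Hw) mutation to CTCF Pita larvae raised Tk, Mip and Dh31, 3 of 8, beside 16.8% in either direction with 9.87% as higher and 6.88% as lower. Adding the Pita mutation to CTCF Su(Hw) larvae raised 6 of 8, all but CCHa1 and NPF, beside 22.6% in either direction with 12.1% as higher and 10.4% as lower. The last count was 5 with the libraries of CTCF Su(Hw) larvae summed, 3 without CTCF Su(Hw) 2 and 3 with library totals. The log2 fold change was above 0 for all 8 genes in that comparison under TMM, from 0.78 for Dh31 to 1.99 for AstA, with a median of 1.24, where the median of all genes was 0.00038.

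**Figure D3:**
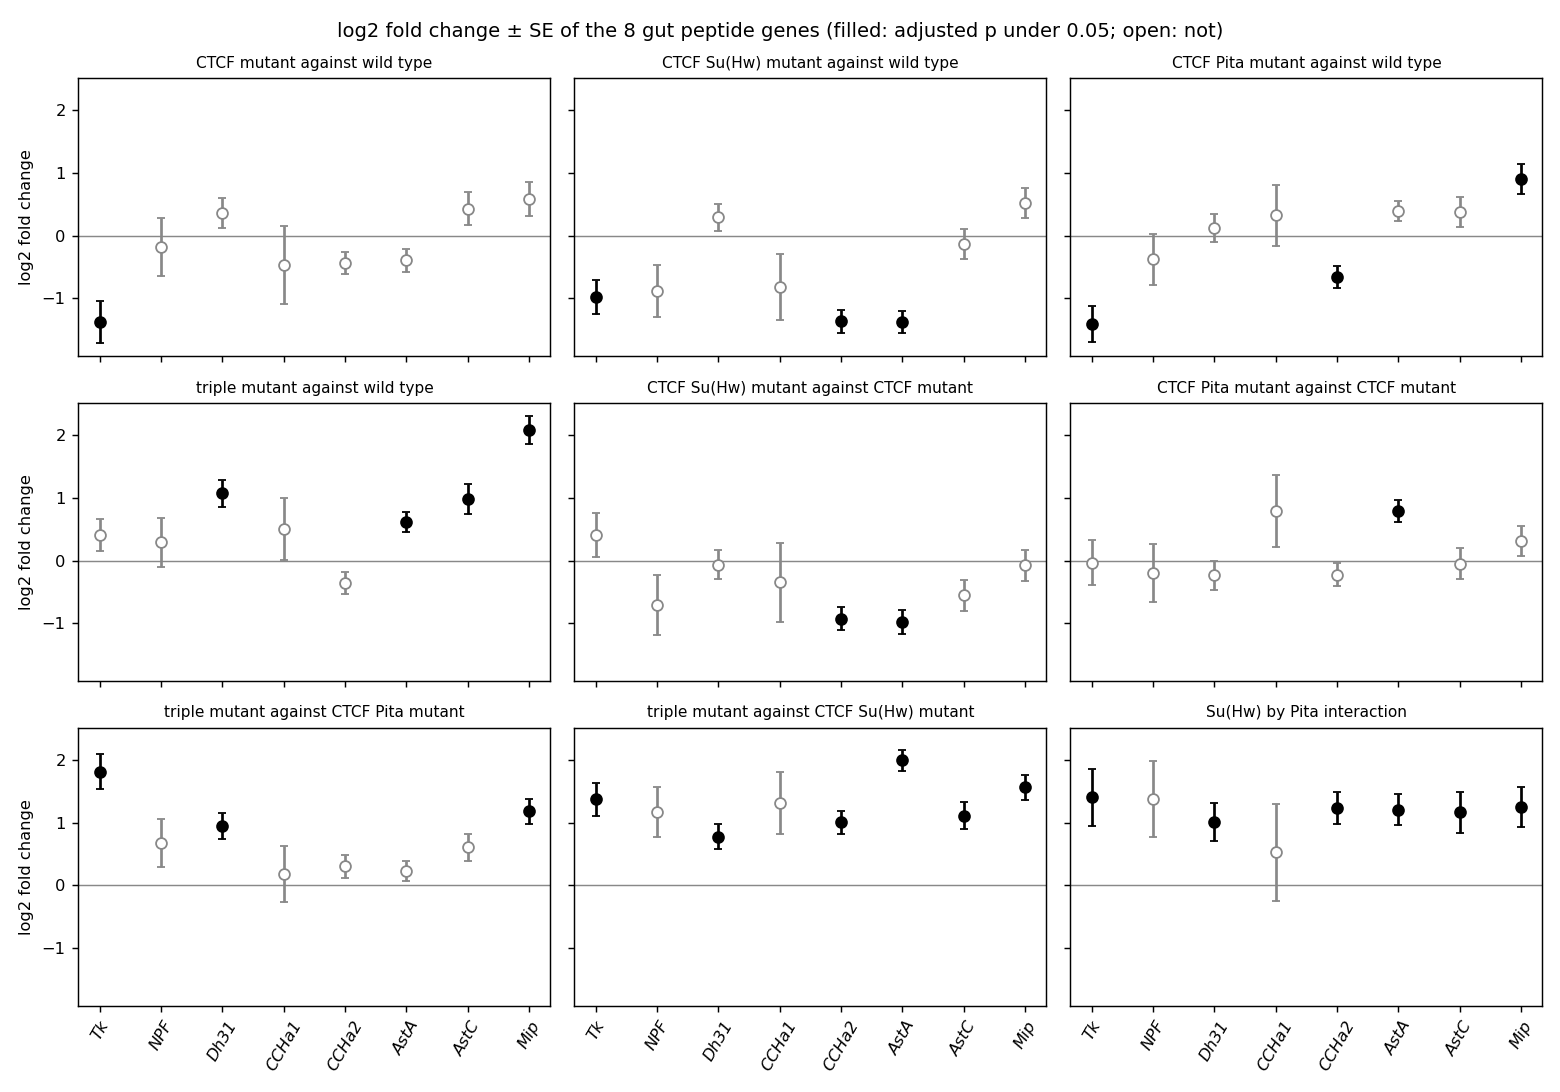
The log2 fold change of each gut peptide gene, with its standard error as a bar, in the 9 comparisons, where filled dots passed the test and open dots did not. In triple mutants against CTCF Su(Hw) larvae all 8 dots lie above 0, between 0.78 and 1.99, and 6 are filled.

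The interaction asks whether the effect of the Su(Hw) and Pita mutations together, on the CTCF background, was more or less than both separate effects added up in log2 units. With TMM factors it was positive for all 8 genes and passed the test for 6, beside 45.3% of all genes called in either direction with 23.2% as higher and 22.1% as lower. Triple mutants had 11.6 CPM of Tk, where the separate log2 effects add up to a level of 4.27. For AstA the values were 25.0 observed and 10.8 from the sum, for CCHa2 60.5 and 25.9, for Mip 15.3 and 6.30, for AstC 10.7 and 4.87 and for Dh31 10.4 and 5.13. The observed level of these 6 genes was 2.03 to 2.71 times the summed one.

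The fitted interaction ranged from 1.01 for Dh31 (SE 0.30, adjusted p = 0.0194) to 1.41 for Tk (SE 0.45, adjusted p = 0.0266) among the genes called. AstA had 1.21 (SE 0.25, adjusted p = 0.003), CCHa2 1.23 (SE 0.26, adjusted p = 0.00316), Mip 1.26 (SE 0.32, adjusted p = 0.0088) and AstC 1.16 (SE 0.33, adjusted p = 0.0151). NPF had 1.38 (SE 0.61, adjusted p = 0.086) and CCHa1 0.53 (SE 0.78, adjusted p = 0.6), and neither passed. The median over the 8 genes was 1.22, against -0.05 over all genes tested.

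The sign of the interaction depended on the scaling. With library totals none of the 8 genes was called, and the value was below 0 for all but Tk, while the median of all genes moved by -1.40. Relative to the all-gene median under that scaling, the 8 genes stood at 0.62 for CCHa1 to 1.45 for Tk. AstA and CCHa2 were called in all alternatives but library totals, and with DESeq2 they were the 2 genes called. Without CTCF Su(Hw) 2 the count was 3. Tk lost the call without CTCF 1, CTCF 2, CTCF Su(Hw) 1, CTCF Su(Hw) 2 or triple 1 and with the libraries of CTCF Su(Hw) larvae summed, AstC without CTCF 2 or CTCF Su(Hw) 2, and Dh31 without CTCF 1, CTCF Su(Hw) 1 or CTCF Su(Hw) 2.

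Receptors of the peptides were mostly too low to test. Of 11 receptor genes, TkR86C, TkR99D, AstA-R1, AstC-R1, CCHa1-R, CCHa2-R and SPR did not pass the filter, with at most 18 reads in a library. Among the 4 that did, NPFR rose in CTCF Su(Hw) larvae against wild type (12 and 26 reads, against 1 and 5 in wild type, log2 fold change 1.87, SE 0.66, adjusted p = 0.0483), a call lost with the libraries of CTCF Su(Hw) larvae summed (adjusted p = 0.113), and no other receptor passed in any comparison. In the interaction, the 4 tested receptors had a median of -0.43.

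The list of peptide maturation held 9 genes, with the vesicle release gene Cadps among them. Of these 9, 1 was higher and 2 lower in triple mutants against wild type, beside 21.2% of all genes called in either direction. Those lower were Fur2, a furin-type protease gene (35.9 ± 2.11 CPM in triple mutants, against 51.02 ± 5.39 in wild type, log2 fold change -0.51, SE 0.14, adjusted p = 0.028), and Pal1, an amidation enzyme gene (46.1 ± 6.45 CPM in triple mutants, against 62.9 ± 4.81 in wild type, log2 fold change -0.45, SE 0.15, adjusted p = 0.0499). The prohormone convertase gene amon had 114 and 63 reads in triple mutants against 54 and 29 in wild type (log2 fold change 0.90, SE 0.34, adjusted p = 0.0859), and the amidating enzyme gene Phm 348 and 218 reads in triple mutants against 238 and 241 in wild type (log2 fold change 0.08, adjusted p = 0.748). Neither passed. The carboxypeptidase gene svr rose in CTCF Su(Hw) larvae (125 ± 0.382 CPM, against 69.0 ± 1.82 in wild type, log2 fold change 0.86, SE 0.14, adjusted p = 0.00156). It also rose against wild type in CTCF Pita larvae (0.62, adjusted p = 0.00689) and triple mutants (0.53, SE 0.14, adjusted p = 0.0219). In CTCF Su(Hw) larvae 3 of 9 were higher and none lower, beside 15.8% of all genes as higher. The count was 2 of 9 in CTCF Pita larvae, beside 18.6%. Of the 3, Fur1 lost the call with the libraries of CTCF Su(Hw) larvae summed. With the libraries of CTCF Su(Hw) larvae summed, none of the 9 was called in triple mutants against wild type. The gene 7B2, which encodes a helper protein of that convertase, rose in CTCF Su(Hw) larvae (43.2 ± 3.80 CPM, against 16.1 ± 4.77 in wild type, log2 fold change 1.43, SE 0.23, adjusted p = 0.0013). In the interaction 4 of 9 were called, all as lower, with a median of -0.62, beside 22.1% of all genes as lower, and 1 of 9 with those libraries summed.

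Of 12 factors of enteroendocrine fate, 8 were tested, sc, dimm and acj6 did not pass the filter, and esg was not analysed here. The homeobox gene pros, which marks enteroendocrine cells and also acts in many neurons and their precursors, had 27.7 ± 2.32 CPM in CTCF larvae, 39.1 ± 4.03 in CTCF Su(Hw) larvae, 124 ± 13.1 in CTCF Pita larvae, 47.7 ± 5.79 in triple mutants and 22.7 ± 1.82 in wild type. Its interaction was -1.87 (SE 0.23, adjusted p = 0.000333), opposite in sign to that of the 8 peptide genes with TMM factors. Against wild type pros was higher in CTCF Su(Hw) larvae (0.78, adjusted p = 0.00508), CTCF Pita larvae (2.45, adjusted p = 1.07e-05) and triple mutants (1.08, adjusted p = 0.000988). In that order 3, 3 and 1 of 8 fate factors were higher and none lower, beside 15.8%, 18.6% and 10.9% of all genes as higher. Summing the libraries of CTCF Su(Hw) larvae ended the calls of Ptx1 in these larvae and ttk in CTCF Pita larvae. The gut endocrine factor tap had 3.35 ± 0.951 CPM in triple mutants and 2.33 ± 0.408 in wild type and passed no test; it was named after its values were seen. In all, 3 of 8 fate factors were called in the interaction, all as lower, beside 45.3% of all genes in either direction and 22.1% as lower. Their share was thus not above the background in either direction, though it was above that of lower calls. The zinc finger gene ttk, which holds back neural and endocrine fate, and the proneural-type gene ase were also called in the interaction, as lower (-1.73, SE 0.24, adjusted p = 0.000484, and -3.54, SE 0.79, adjusted p = 0.00455), with ase at only 1 and 2 reads in CTCF larvae.

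Among 30 other neuropeptide genes, 18 were tested, and in the interaction 3 were higher and 3 lower, with a median of 0.0023, beside 45.3% of all genes in either direction (1 higher and 2 lower with the libraries of CTCF Su(Hw) larvae summed). In CTCF Su(Hw) larvae against wild type 7 of 18 were lower and 1 higher, beside 17.4% of all genes as lower and 15.8% as higher. Their median there was -0.54, where that of the 8 gut peptide genes was -0.85. All of these calls of other neuropeptide genes ended once the libraries of CTCF Su(Hw) larvae were summed. In triple mutants against CTCF Su(Hw) larvae 2 of 18 were higher and none lower, beside 12.1% of all genes as higher. These were Ilp3, an insulin-like peptide gene (7.32 ± 0.692 CPM in triple mutants, against 0.893 ± 0.179 in CTCF Su(Hw) larvae, log2 fold change 3.02, SE 0.41, adjusted p = 0.000636), and Orcokinin, whose peptides are also made by gut endocrine cells (5.25 ± 0.893 CPM in triple mutants, against 2.07 ± 0.485 in CTCF Su(Hw) larvae, log2 fold change 1.36, SE 0.33, adjusted p = 0.0139). With the libraries of CTCF Su(Hw) larvae summed, the call of Orcokinin was lost (adjusted p = 0.0798). The genes with the largest called interactions were Ilp3 (2.03), Dh44 (-1.52), Ilp5 (1.42) and ITP (-1.36), of which ITP alone was called with those libraries summed.

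Neurons also make most of these peptides, so 15 neuronal genes were read beside them. They had a summed level of 187 and 199 CPM in CTCF larvae, 392 and 429 in CTCF Su(Hw) larvae, 346 and 331 in CTCF Pita larvae, 247 and 201 in triple mutants, and 196 and 228 in wild type. Of these sums, brp alone made up 95.6 CPM on average in CTCF Su(Hw) larvae and 7.20 in wild type. All 15 were detected in every library. In the interaction 11 of 15 were lower and none higher, with a median of -1.07, beside 22.1% of all genes as lower and 23.2% as higher. With the libraries of CTCF Su(Hw) larvae summed, 9 of 15 were lower. The largest were fne (-3.78, SE 0.47, adjusted p = 0.000341), brp (-3.74, SE 0.32, adjusted p = 8.81e-05), which encodes the active zone protein Bruchpilot, nrv3 (-2.46) and elav (-1.82), which encodes a neuronal RNA-binding protein. Against wild type 9 of 15 were higher and none lower in CTCF Su(Hw) larvae, and likewise in CTCF Pita larvae, beside 15.8% and 18.6% of all genes as higher. With the libraries of CTCF Su(Hw) larvae summed, these counts were 4 and 6. In triple mutants against wild type 1 of 15 was higher and none lower, beside 10.9% of all genes as higher.

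Digestive genes of the enterocytes, such as trypsins, Jonah proteases and maltases, were also read. Their summed level was 80520.3 and 61059.7 CPM in CTCF larvae, 24023 and 24132 in CTCF Su(Hw) larvae, 23272 and 26199 in CTCF Pita larvae, 40259.8 and 68932 in triple mutants, and 41372 and 22419 in wild type. In the interaction 17 of 27 tested were higher and none lower, with a median of 2.40 (range -0.22 to 5.14), beside 23.2% of all genes as higher and 22.1% as lower. In triple mutants against CTCF Su(Hw) larvae 15 were higher and 2 lower, with a median of 1.44, beside 12.1% of all genes as higher and 10.4% as lower. With the libraries of CTCF Su(Hw) larvae summed, 16 were higher in the interaction, and 6 were higher and 1 lower in triple mutants against CTCF Su(Hw) larvae. With library totals the interaction medians were -0.18 for the gut peptide genes, 0.92 for the digestive genes and -2.43 for the neuronal genes, where that of all genes was -1.45. The trypsin gene thetaTry had the largest interaction (5.14, SE 0.56, adjusted p = 0.000251), with 318 ± 125 CPM in triple mutants and 23.4 ± 0.263 in CTCF Su(Hw) larvae. Multimapping reads are left out of these counts, so values of near-identical protease genes are uncertain. In CTCF larvae against wild type 6 of 27 digestive genes were higher and none lower (1 higher with the libraries of CTCF Su(Hw) larvae summed), beside 2.2% of all genes as higher, and 1 of 8 gut peptide genes was called, as lower. Of 10 gut region and copper cell genes, 1 was higher in triple mutants against wild type, beside 10.9% of all genes, and in the interaction 2 were lower (1 with the libraries of CTCF Su(Hw) larvae summed), beside 22.1%. Of 11 salivary glue genes, 6 were higher in triple mutants against wild type and none lower (4 higher with the libraries of CTCF Su(Hw) larvae summed), beside 10.9% of all genes as higher. In the interaction 2 of 11 were higher, ng2 (2.12) and ng3 (1.84), and 2 lower, Sgs1 (-4.01) and Sgs4 (-4.84), beside 45.3% of all genes in either direction. The part of gut or nervous tissue content in the results for the peptide genes was not tested.

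**Figure D4:**
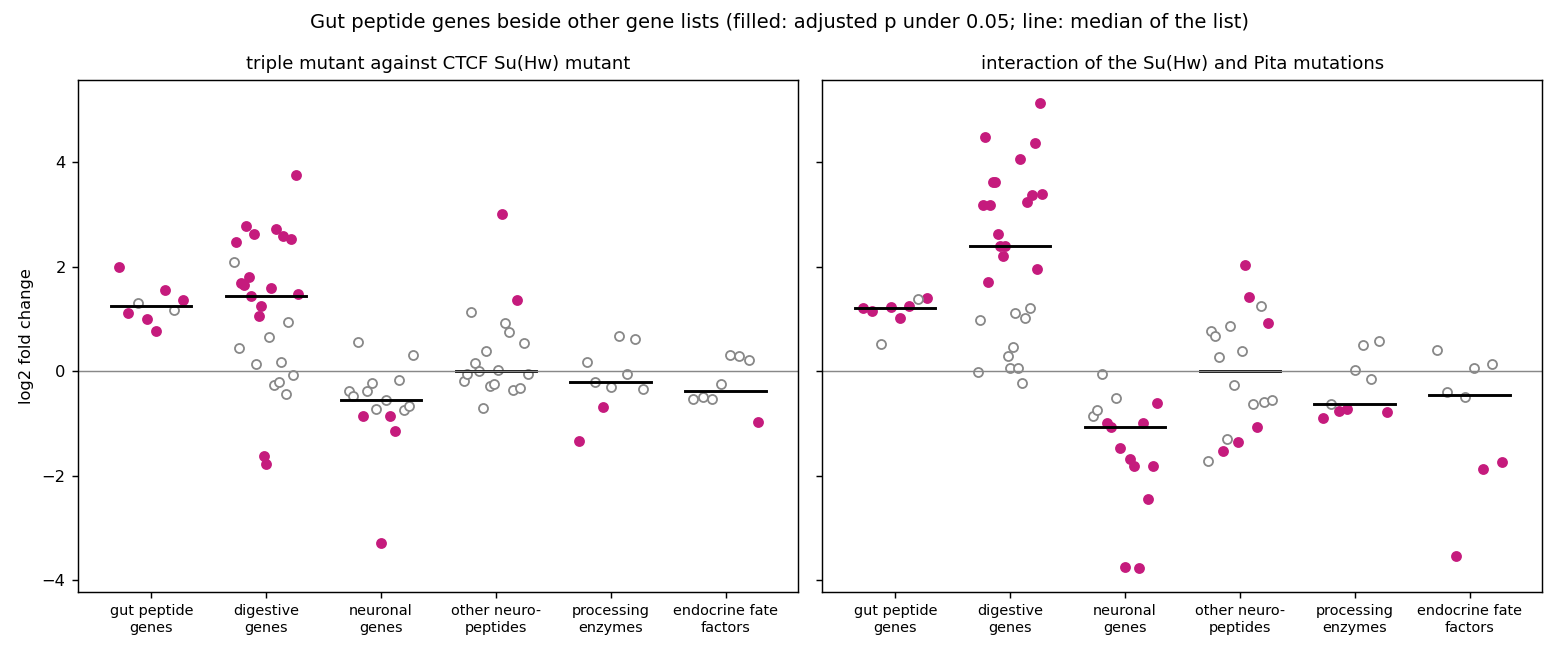
The log2 fold change of each tested gene by list, in triple mutants against CTCF Su(Hw) larvae (left) and in the interaction (right), with filled dots for genes that passed the test and a line at the median of the list. Gut peptide genes (median 1.22 in the interaction) and digestive genes (2.40) lie mostly above 0 with TMM factors, and neuronal genes (-1.07) below it.

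Profiles of the 8 genes were compared with each other and with all genes tested. Likeness was measured as the root mean square difference between log2 CPM profiles over the 10 libraries, each centred on its own mean. A smaller value is a closer pattern, but the value also grows with the size of a gene's changes. The SD of log2 CPM over libraries was 0.80 for Tk and 0.39 for Dh31. No reference distance was set, so whether the 8 genes share 1 profile was not tested. The closest pair of gut peptide genes was AstC and Dh31 (0.27), followed by CCHa2 and NPF (0.33), and the farthest was CCHa2 and Mip (0.84). Tk was at least 0.61 from every other one of them. Over all genes tested, the closest patterns to CCHa2 were those of the insulin-like peptide gene Ilp5 (0.19), Sgf29 (0.20) and Fpps (0.20). The closest to Mip were Tsp42Ec (0.21), mex1 (0.21) and Ptp52F (0.22), and the closest to Dh31 were Miox (0.13), CG15152 (0.15) and Syx4 (0.15). Those closest to Tk were CG34426, Mco4 and Cyp28a5 (0.29 to 0.31), and those closest to AstA were CG30046, obst-G and CG12934 (0.25 to 0.29). AstC was nearest to CG13689, Lamp1 and CG9467 (all 0.19) and CCHa1 to CG34386, Tret1-2 and Lst (0.25 to 0.35). The mean profile of the 8 genes was closest to CR18228 (0.13), Non1 (0.14), RPA1 (0.16), CG8321 (0.16) and CG31633 (0.17).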

How the data were processed

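The authors deposited raw counts per gene for each library, as STAR writes them with its own counting option (3 columns by strand, and summary lines that were left out of library sizes). Per the submitters' processing notes, reads were processed with cutadapt and STAR on dm6; neither versions nor the annotation release is given in the sources used here. Per the labels' protocols, RNA came from 100 mg of larvae and oligo(dT) selection, with 12 PCR cycles. The column without regard to strand was used, since 50.1% to 50.3% of stranded assignments fell on the forward strand. Of 17735 identifiers, 17597 have a name in the Ensembl annotation used here.

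Genes were filtered with filterByExpr of edgeR 4.0.16 (minimum count 10), which left 10585. Counts were scaled with TMM and tested, two-sided, with the edgeR quasi-likelihood test in 1 model of all 10 libraries (R 4.3.3), with Benjamini-Hochberg adjustment over all genes tested and calls at 0.05. The fit had 5 residual degrees of freedom and a biological coefficient of variation of 15.9%. An exact permutation test of 2 libraries against 2 cannot go below p = 0.333. Nothing says that replicates came from separate cultures, so p-values measure the spread between libraries, which may be technical. The script was tested on simulated data. Levels per kilobase use the union of annotated exons.

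The members and lists were chosen with earlier results of these data known. The 8 members were always described. From each list up to 4 called genes with the largest change per comparison were eligible for naming, with receptors and maturation genes named freely, and likeness named the 3 closest genes (5 for the mean profile); those closest to NPF are not reported here. Alternatives were RLE factors, library totals, DESeq2 1.42.0, no count filter, a replicate block, the mean log2 CPM of the salivary glue genes as a covariate (the glue score), the 2 libraries of CTCF Su(Hw) larvae summed, the compared groups alone, and each library left out.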

Additional observations from a re-analysis of the deposited data

Results flagged for a closer look

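The effect of adding the Pita mutation differed between the CTCF Su(Hw) background and the CTCF background, by the interaction test of edgeR, in 6 gut peptide genes: Tk (1.41, adjusted p = 0.0266), AstA (1.21, adjusted p = 0.003), AstC (1.16, adjusted p = 0.0151), CCHa2 (1.23, adjusted p = 0.00316), Mip (1.26, adjusted p = 0.0088) and Dh31 (1.01, adjusted p = 0.0194), all on the log2 scale. Of all genes tested, 45.3% passed the same test.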

How the results depend on the processing

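Of 29 called results for the 8 genes, over 522 settings in all, 444 kept their direction and call, 71 lost the call and 7 changed sign. The calls kept in all 18 alternatives were 8: AstA and CCHa2 in CTCF Su(Hw) larvae against wild type, AstA in CTCF Pita larvae against CTCF larvae and in triple mutants against CTCF Su(Hw) larvae, Tk in triple mutants against CTCF Pita larvae, and Mip in triple mutants against wild type, CTCF Pita larvae and CTCF Su(Hw) larvae. Over the 770 settings of the 43 results not called, 16 gained a call, 10 with the same sign and 6 with the sign changed, among 36 that changed sign. The 6 were all with library totals, namely Tk, AstC, CCHa2 and Dh31 in CTCF Pita larvae and Mip and Dh31 in CTCF Su(Hw) larvae, against CTCF larvae. The number of the 8 genes called in CTCF larvae against wild type, 1, was 0 with RLE factors, DESeq2, the replicate block, the glue score and the summed libraries, and 3 with library totals. With the glue score it was 0 in CTCF Pita larvae and 1 in triple mutants against wild type. With library totals it was 7 in CTCF Pita larvae against CTCF larvae, 3 in triple mutants against CTCF Su(Hw) larvae and 0 in the interaction, where DESeq2 gave 2. With 1 library left out, where the lone library of that group is assumed to vary like the others, the count ran from 0 to 1 in CTCF larvae, 2 to 3 in CTCF Su(Hw) larvae, 1 to 3 in CTCF Pita larvae and 2 to 4 in triple mutants against wild type. It was 2 throughout in CTCF Su(Hw) larvae and 1 throughout in CTCF Pita larvae against CTCF larvae, 2 to 3 in triple mutants against CTCF Pita larvae, 3 to 6 in triple mutants against CTCF Su(Hw) larvae and 3 to 6 in the interaction. The causes of these changes were not tested.

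Values that changed sign with library totals were those of the interaction in AstA (-0.20), AstC (-0.22), CCHa1 (-0.83), CCHa2 (-0.15), Mip (-0.16), NPF (-0.022) and Dh31 (-0.40). In CTCF Su(Hw) larvae against CTCF larvae they were AstA (0.079), AstC (0.50), CCHa1 (0.71), CCHa2 (0.13), Mip (0.99), NPF (0.36) and Dh31 (1.01), and in CTCF Pita larvae against CTCF larvae Tk (1.04), AstC (1.01), CCHa2 (0.83), NPF (0.86) and Dh31 (0.84). In triple mutants against CTCF Pita larvae they were AstA (-0.12), CCHa1 (-0.13) and CCHa2 (-0.020). Against wild type they were AstC (-0.15) and Dh31 (-0.23) in CTCF larvae, AstC (0.36) in CTCF Su(Hw) larvae and NPF (0.10) in CTCF Pita larvae. The median of all genes moved by between -1.40 and 1.06 with library totals, and by at most 0.046 with RLE factors. With the glue score Tk turned to 0.0084 in CTCF Pita larvae against CTCF larvae, NPF to 0.057 in CTCF larvae and Dh31 to -0.095 in CTCF Pita larvae against wild type.

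Leaving out 1 library changed the sign of some values that were not called. CCHa1 ranged from -0.85 to 0.046 in CTCF larvae, -0.099 to 0.82 in CTCF Pita larvae and -0.31 to 1.01 in triple mutants against wild type, from -1.06 to 0.12 in CTCF Su(Hw) against CTCF larvae, from -0.62 to 0.58 in triple mutants against CTCF Pita larvae and from -0.26 to 1.24 in the interaction. NPF ranged from -0.51 to 0.14 in CTCF larvae against wild type, where it also turned to 0.13 without CTCF 2, and from -0.54 to 0.11 in CTCF Pita against CTCF larvae. AstC ranged from -0.30 to 0.0059 in CTCF Su(Hw) larvae against wild type, and was 0.00016 without wild type 1. Against CTCF larvae, Tk ranged from -0.69 to 0.35 in CTCF Pita larvae, and Mip from -0.26 to 0.054 and Dh31 from -0.27 to 0.085 in CTCF Su(Hw) larvae.

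Replicate numbers are shared by the labels of all groups, but libraries of the same number did not deviate together: 1 of 10 pairs of groups had a correlation over 0.1, from -0.149 to 0.153. The fit with the replicate block changed 1 call, that of Tk in CTCF larvae against wild type (-1.38, adjusted p = 0.065). At 5 to 39 reads per library, depth limits the comparisons of CCHa1 and NPF most. The libraries of wild type carry 4 of the 9 comparisons.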
